A study of Mus musculus with 4 samples.

Results

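Interferon-induced GTPases are proteins that cells make in quantity when interferon binds its receptors, and they protect the cell from within against microbes that live in vacuoles or the cytosol. They fall into families of different size. The guanylate-binding proteins (Gbp genes) are large GTPases that assemble into coats on microbial membranes and help to start inflammasome signaling, whereas the immunity-related GTPases (Irgm1, Irgm2, Igtp and Iigp1 here) are smaller. Among these, Irgm1, Irgm2 and Igtp (also called Irgm3) are regulators that sit on the cell's own membranes, and Iigp1 is an effector that loads onto the vacuoles of intracellular parasites. Transcription of both families is switched on by transcription factors of the STAT and IRF families, which bind short elements in the promoters, the GAS and the ISRE. The genes are widely used as a readout of interferon signaling in mouse cells.

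The 10 genes described are Gbp2, Gbp3, Gbp5, Gbp6, Gbp7, Gbp9, Irgm1, Irgm2, Igtp and Iigp1, chosen by name from the 34721 entries of the expression table and matched to it through GENCODE M21. They were read in 4 oral cancer lines from 2 mice. AOC3 (primary oral tumor) and AOC3-LN (lymph node metastasis) came from mouse 3, and AOC11 and AOC11-LN, likewise, from mouse 11. The mice were C57BL/6, and the study's methods name male mice for its animal work. All tumors were induced with the carcinogen 7,12-dimethylbenzanthracene on the buccal mucosa. The cells of all lines had passed through the flank of further C57BL/6 mice, had fibroblasts removed with a magnetic kit, and were grown in DMEM/F12 medium with serum, with no interferon or other agent given in the labels. Each line is an established culture with 1 library, so a difference between single lines has no replicate check.

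The values are FPKM, a fragment count corrected for the length of the transcript and for library size, so they can be compared between genes as well as lines. The libraries were scaled to an estimated 27900000 to 33300000 fragments, AOC3-LN having the fewest. Epithelial markers were high in all lines (summed FPKM of 8 genes between 3190 and 3730), and keratin Krt18 alone was between 957 and 1320. Among T and NK cell markers, 5 of 8 were at 0 in all lines and the sum of the 8 did not exceed 0.138 FPKM. The macrophage marker Adgre1 was at 0 in all lines, Lyz2 was at most 0.0266 and the leukocyte gene Ptprc at most 0.0640. The summed FPKM of 7 macrophage markers was 21.3 in AOC3 and 17.8 in AOC3-LN, against 33.8 in AOC11 and 16.8 in AOC11-LN, carried by Cd68, Cd14 and Csf1r. Csf1r was higher in the AOC11 lines (20.8 FPKM in AOC11 and 6.01 in AOC11-LN, against 0.995 in AOC3 and 0.435 in AOC3-LN). Cd68 was higher in the AOC3 lines (13.0 and 8.79 FPKM, against 6.15 and 4.45), and the part of these markers in the differences between the mice was not tested. B cell, endothelial and fibroblast markers each summed to less than 1 FPKM in every line.

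A promoter window of 7 of these genes carries the ISRE letters, through which the family is known to be induced. The windows of 6 are shown here because the same element stands close to the start site in genes of 3 separate clusters. RefSeq windows (GRCm38.p6, the assembly of mm10) from 250 bases before to 50 bases after the transcription start were found for 7 of the 10 genes, all but Gbp6, Gbp9 and Iigp1. They were searched on both strands for GAAA and GAAA set apart by 2 bases of any kind (ISRE core) and for TTC and GAA set apart by 3 (GAS core). The ISRE core was present in 7 of 7 genes, and in 3.44% of all 32851 windows. Here and below a gene was counted by any of its windows, whereas the percentages are shares of windows. The GAS core was present in 4 of 7 genes, Gbp5, Gbp7, Irgm2 and Igtp, and in 8.30% of all windows. Both together occurred in 4 of 7 genes and in 0.454% of all windows. Each line below gives the 120 bases before the start, 5′ to 3′ along the gene, with ISRE and GAS core letters in capitals. An ISRE core on the other strand reads TTTC, 2 bases and TTTC, as in all 3 Gbp genes shown.
Gbp2: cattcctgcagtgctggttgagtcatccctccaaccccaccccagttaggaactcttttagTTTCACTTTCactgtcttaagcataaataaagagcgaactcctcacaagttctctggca
Gbp3: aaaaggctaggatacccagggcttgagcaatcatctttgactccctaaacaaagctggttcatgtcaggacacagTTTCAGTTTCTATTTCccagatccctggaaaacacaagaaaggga
Gbp7: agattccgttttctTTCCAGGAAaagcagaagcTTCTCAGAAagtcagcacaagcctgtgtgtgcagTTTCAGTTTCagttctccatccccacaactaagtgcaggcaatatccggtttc
Irgm1: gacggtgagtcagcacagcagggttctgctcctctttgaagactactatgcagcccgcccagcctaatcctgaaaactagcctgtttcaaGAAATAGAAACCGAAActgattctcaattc
Irgm2: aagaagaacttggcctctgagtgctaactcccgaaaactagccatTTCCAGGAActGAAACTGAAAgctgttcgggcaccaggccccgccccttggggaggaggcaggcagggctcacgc
Igtp: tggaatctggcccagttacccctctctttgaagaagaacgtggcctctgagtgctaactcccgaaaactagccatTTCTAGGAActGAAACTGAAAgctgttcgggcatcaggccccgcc
The stretches are chr3:142620543-142620662, plus strand (Gbp2), chr3:142559924-142560043, plus strand (Gbp3, the first of its 2 windows), chr3:142530216-142530335, plus strand (Gbp7), chr11:48871421-48871540, minus strand (Irgm1), chr11:58214857-58214976, plus strand (Irgm2) and chr11:58199436-58199555, plus strand (Igtp).

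Counted from the RefSeq start site, the ISRE core began at -59 in Gbp2, at -53 in Gbp7 and at -45 and -39 in Gbp3, where 2 copies overlap. It began at -30 and -24 in Irgm1, again with overlapping copies, at -64 in Irgm2 and at -34 in Igtp. In Gbp5 it lay farther away, at -165, with GAS cores at -245 and -52. The second window of Gbp3 held neither motif. Irgm2 and Igtp, neighbors on chromosome 11, had a GAS core that began 11 bases before the ISRE core, and so did Tgtp1, Tgtp2 and Gm12185, 3 further immunity-related GTPase genes. The longest run of identical letters between the windows of Igtp and Irgm2 was 61 bases. Of 10 other interferon-induced GTPase genes with a window outside chromosome 18, 7 held an ISRE core and 4 a GAS core. For Gbp2, Gbp3, Gbp5, Irgm1 and Irgm2 the RefSeq start lies inside the GENCODE M21 gene, so the distances hold for the RefSeq start only. A match of letters is a description of the window and not a measurement of binding.

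**Figure D1:**
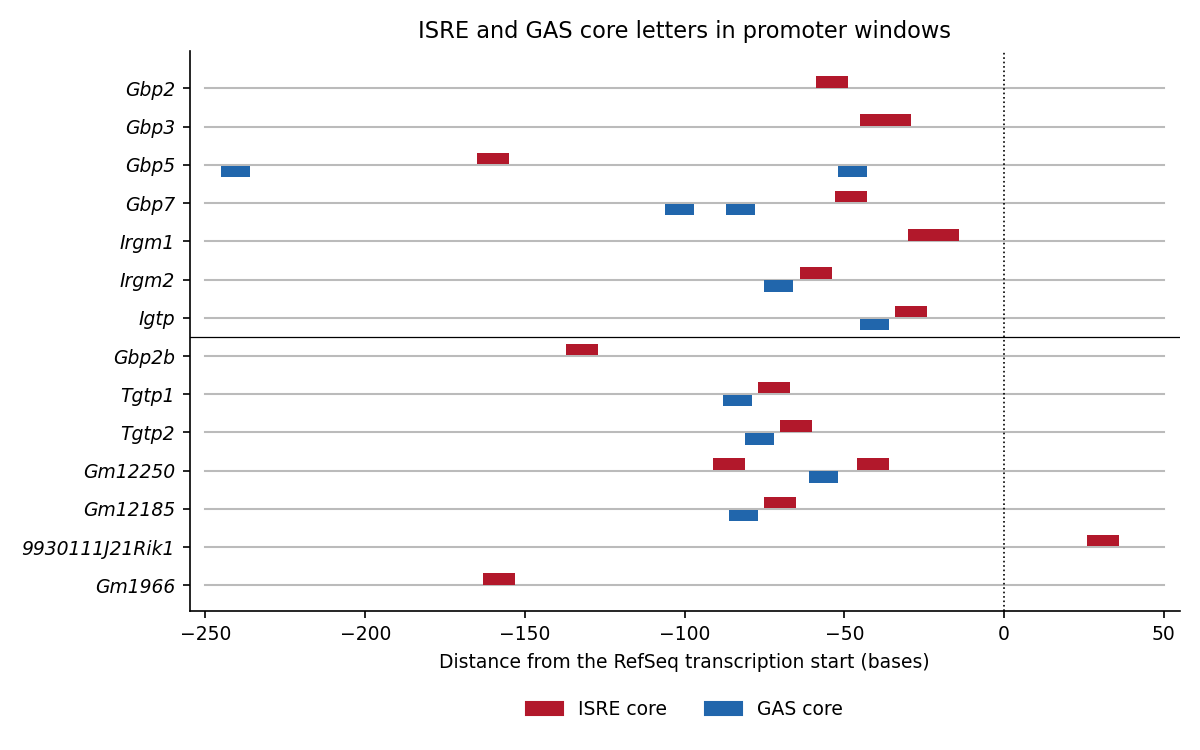
Position of ISRE core (red, above the line) and GAS core (blue, below the line) letters in RefSeq promoter windows from 250 bases before to 50 after the transcription start; the x axis is the distance from the start in bases, with the 7 member genes above the horizontal divider and 7 other interferon-induced GTPase genes with a match below it. In 6 of the 7 members the ISRE core starts at -64 or nearer to the start site, and in Gbp5 at -165; for Gbp3 the window with a match is drawn.

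In the 4 lines the GTPases shared an order. AOC3-LN was the lowest and AOC11-LN the highest in 9 of 10 genes by FPKM, while Iigp1 was at 0 in 3 lines and detected in AOC11-LN alone. Among the 7 members with 1 FPKM or more in any line, 7 had that order. It was found in 15.0% of the 14165 genes tested, which passed the same filter. Summed over the 10 genes, FPKM was 10.03 in AOC3 and 2.79 in AOC3-LN, against 16.2 in AOC11 and 38.1 in AOC11-LN. The 2 primary lines thus lay between the 2 lymph node lines, and the lymph node lines were the extremes in opposite directions. Most of each sum came from Gbp2 and Irgm1. With 1 library per line the order carries no test, and 4 of the 7 genes that reached 1 FPKM (Gbp3, Gbp7, Gbp9 and Irgm2) did so only in AOC11-LN, so the filter itself made AOC11-LN their highest line. In RNA of whole cultures, more expressing cells and more RNA per cell cannot be told apart.

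**Figure D2:**
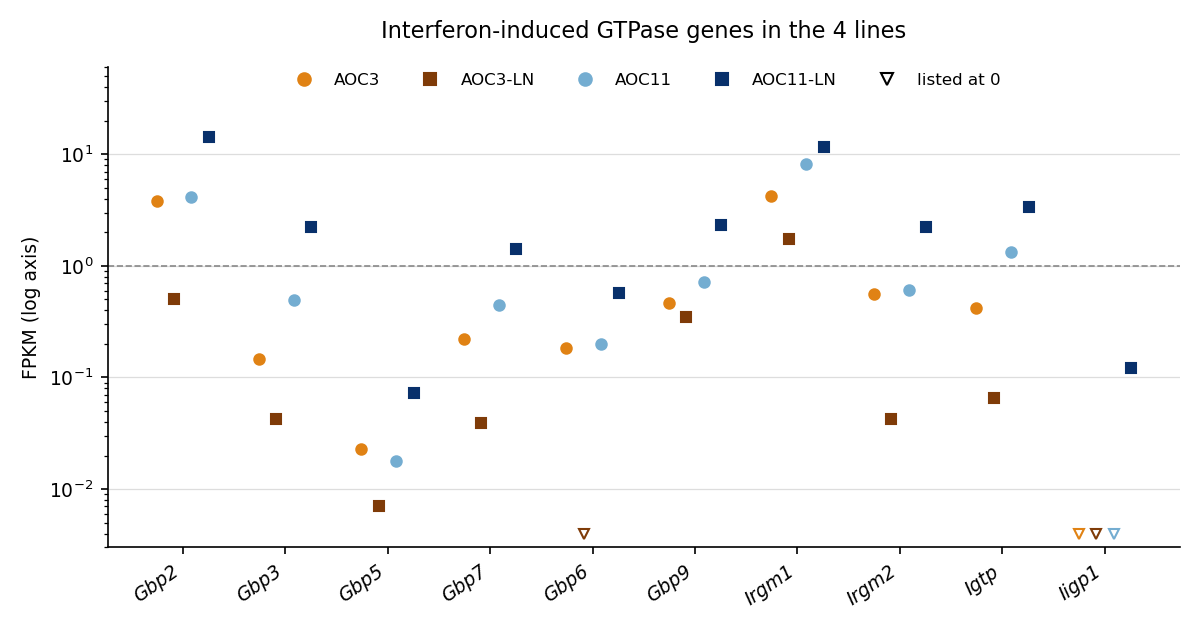
FPKM (log axis) of the 10 interferon-induced GTPase genes in AOC3, AOC3-LN, AOC11 and AOC11-LN, 1 library per line, with open triangles at the bottom for values listed at 0 and a dashed line at the filter of 1 FPKM. AOC3-LN is the lowest and AOC11-LN the highest point of every gene but Iigp1, which is seen in AOC11-LN only.

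Among the guanylate-binding proteins of chromosome 3, Gbp2 (ENSMUSG00000028270.12, chr3:142620602-142638008, plus strand, mm10) was the most abundant. This prenylated GTPase is a coat protein on vacuoles of Toxoplasma and on cytosolic bacteria. Its FPKM was 3.79 in AOC3 and 0.508 in AOC3-LN, against 4.14 in AOC11 and 14.2 in AOC11-LN, from an estimated 297, 33, 323 and 1068 fragments. AOC3 and AOC11 had nearly the same level, with an FPKM ratio of AOC11 to AOC3 of 1.09 and a 95% interval of 0.930 to 1.28. The lymph node lines stood apart from both, AOC11-LN being 27.8-fold above AOC3-LN (20.0 to 41.3). These intervals, from the exact Clopper-Pearson method on estimated fragments, cover counting error only and not the spread between cultures.

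Gbp3 (chr3:142560026-142573209) was low, at 0.147 FPKM in AOC3 and 0.0428 in AOC3-LN, against 0.498 in AOC11 and 2.23 in AOC11-LN. AOC11-LN was 4.48-fold above AOC11 (3.14 to 6.39), and only 3.0 fragments lay behind the AOC3-LN value. AOC3 and AOC3-LN could not be separated by counting error, their ratio being 3.44 (0.909 to 18.6). Gbp7 (chr3:142530342-142550149), which takes part in oxidative defense in macrophages, was at 0.222, 0.0388, 0.447 and 1.42 FPKM in the same order of lines. Of the 100-base windows of its transcripts, 9.76% also occur in the overlapping processed pseudogene Gm43802, whose own FPKM was 0.126, 0, 0.344 and 0.655, so the reads of the pair may have been split. Gbp5 (chr3:142493978-142522344), known for its role in the NLRP3 inflammasome, was barely detected. Its FPKM was 0.0229, 0.00706, 0.0177 and 0.0727, from at most 6.7 fragments in a line. The interval of its AOC11-LN to AOC3-LN ratio ran from 0.785 to 275, so no difference of Gbp5 was detectable at this depth.

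The Gbp genes of chromosome 5 were likewise low. Gbp9 (chr5:105077630-105139539, minus strand) was at 0.469 FPKM in AOC3 and 0.351 in AOC3-LN, against 0.715 in AOC11 and 2.31 in AOC11-LN. Here AOC3-LN and AOC3 could not be separated by counting error, the ratio of AOC3 to AOC3-LN being 1.34 (0.797 to 2.32). Gbp6 (chr5:105270702-105293698, minus strand) was at 0.184 FPKM in AOC3 and 0 in AOC3-LN, against 0.201 in AOC11 and 0.573 in AOC11-LN. Against the 0.0439 FPKM that 3 fragments would give in AOC3-LN, AOC11-LN was 13.1-fold higher, a ratio that leaves out its own counting error. Gbp6 shares 82.91% of its 100-base windows with the overlapping gene Gm43302, so its level is uncertain, although Gm43302 itself did not exceed 0.0173 FPKM in any line.

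Irgm1 (chr11:48861968-48871683, minus strand) was the highest immunity-related GTPase in every line and the only member above 1 FPKM in all 4. It is needed for defense against mycobacteria and for the control of the other immunity-related GTPases. Its FPKM was 4.21 in AOC3 and 1.74 in AOC3-LN, against 8.20 in AOC11 and 11.7 in AOC11-LN, from 268, 93, 521 and 721 fragments. All neighbors in this order were separated by more than counting error. AOC11-LN was 1.43-fold above AOC11 (1.27 to 1.60), AOC11 was 1.95-fold above AOC3 (1.68 to 2.27), and AOC3 was 2.42-fold above AOC3-LN (1.91 to 3.11).

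Igtp (chr11:58199556-58207591) and Irgm2 (chr11:58199618-58222782) overlap on the plus strand of chromosome 11. Igtp, a regulator found on the endoplasmic reticulum and lipid droplets, was at 0.419, 0.0657, 1.34 and 3.35 FPKM in AOC3, AOC3-LN, AOC11 and AOC11-LN. Irgm2, its neighbor of the same regulator class, was at 0.562, 0.0427, 0.612 and 2.21 FPKM. In AOC3-LN these values rest on 3.0 and 3.9 fragments. The genes differed in how the primary lines compared, the AOC11 to AOC3 ratio being 3.19 for Igtp (1.99 to 5.50) and 1.09 for Irgm2 (0.756 to 1.56). The difference between those ratios was not tested. They share 5.67% and 2.48% of their 100-base windows, respectively. The effector Iigp1 (chr18:60376027-60392634) was listed at 0 in AOC3, AOC3-LN and AOC11 and at 0.122 FPKM, about 8.9 fragments, in AOC11-LN. The floor of 3 fragments was 0.0400, 0.0475 and 0.0401 FPKM in the lines at 0. AOC11-LN was 2.58-fold above the floor of AOC3-LN and 3.05-fold above that of AOC11. These ratios leave out the counting error of the AOC11-LN value.

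**Figure D3:**
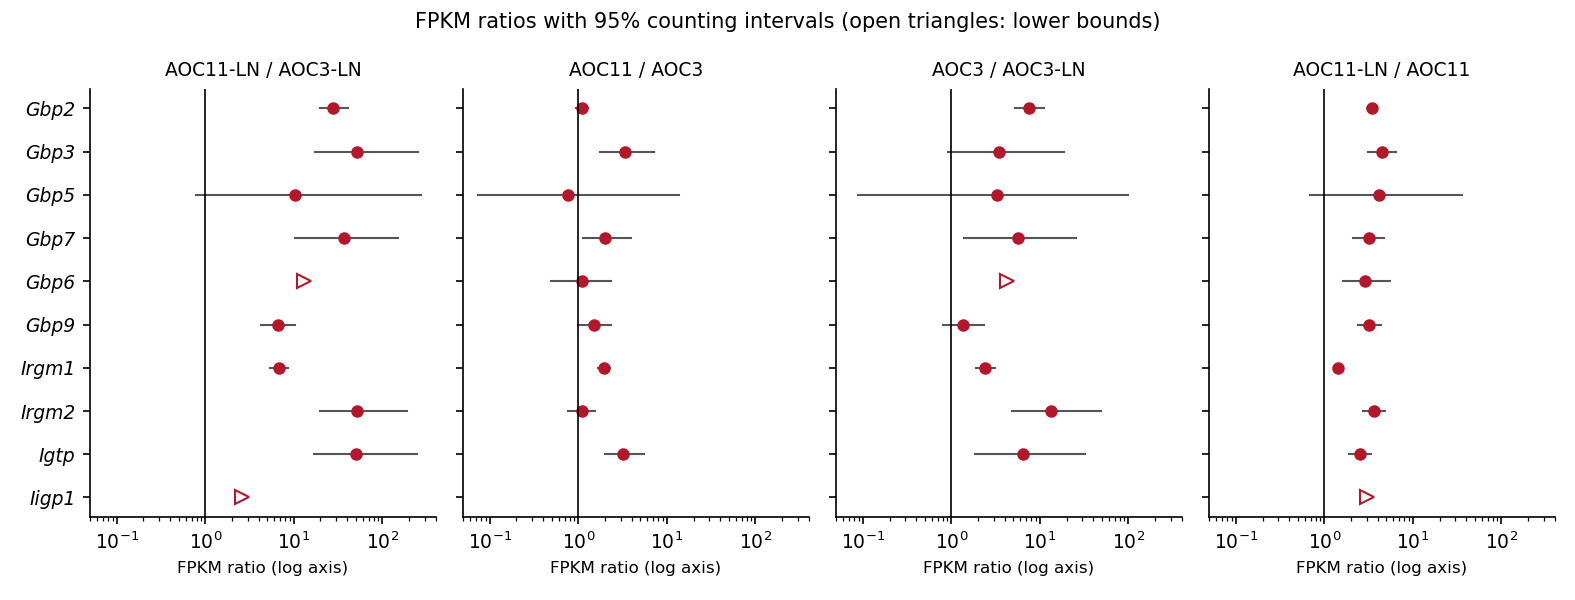
FPKM ratios (log axis) of the 10 genes for 4 pairs of lines, with dots for the ratio, bars for the 95% interval from fragment counts and open triangles for lower bounds where the lower line was at 0; no point is drawn where both lines were at 0. Between the lymph node lines every interval drawn but that of Gbp5 lies above 1, and Gbp6 and Iigp1 have no interval. Between the primary lines the intervals of Gbp2, Gbp5, Gbp6, Gbp9 and Irgm2 include 1.

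The study asked how lines of the 2 mice differ in expression, and here the lines of mouse 3 (the AOC3 lines) were set against those of mouse 11 (the AOC11 lines) on quantile-normalized log2(FPKM + 1), a scale that understates the change of genes below 1 FPKM. Of the 10 genes, 7 passed the filter of 1 FPKM in at least 1 line, and Gbp5, Gbp6 and Iigp1 did not. All 7 were lower in the AOC3 lines. Gbp3, Gbp7, Gbp9 and Irgm2 passed only through AOC11-LN and Igtp only through the AOC11 lines, so the filter favored that direction for them. The counts and the median below are therefore not independent of the filter, and only Gbp2 and Irgm1 also reached 1 FPKM in an AOC3 line. The log2 difference was below -1 for 3 of 7, Gbp2, Irgm1 and Igtp, against 6.00% of all 14165 genes tested. The median of the 7 was -0.98 and that of all genes 0.01. Gbp2 had the largest difference, -1.68 ± 0.72 (SE, n = 2 lines per group), with a limma adjusted p of 0.302. Irgm1 differed by -1.44 ± 0.36 (limma adjusted p = 0.163) and Igtp by -1.37 ± 0.35 (limma adjusted p = 0.169). The other 4 lay between -0.68 and -0.98. limma, in which the primary and lymph node line of a mouse stand in as replicates, called 0 of 7 genes at an adjusted p under 0.05, against 0.205% of all genes. At an unadjusted p under 0.05 it had 2 of 7, Irgm1 and Igtp, against 18.7% of all genes. With n = 2 lines per group, a missed threshold does not show that the mice were alike. The count of 3 below -1 depended on single lines, being 5 without AOC3, 6 without AOC11 and 2 without AOC3-LN, and 2 of the 3 members that still passed without AOC11-LN, and it was 7 with a pseudocount of 0.1.

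Within the mice, the lymph node and primary lines differed in opposite directions. In mouse 3 all 7 genes were lower in the lymph node line than in the primary line, and in mouse 11 all 7 were higher, an arrangement shared by 23.3% of all genes tested. For Gbp3, Gbp7, Gbp9 and Irgm2, which reached 1 FPKM in AOC11-LN only, the filter fixed the direction in mouse 11. Gbp2 had a log2 difference of -1.56 between AOC3-LN and AOC3 and of 1.51 between AOC11-LN and AOC11. Irgm1 followed with -0.81 and 0.44, and Irgm2 with -0.54 and 0.71. Gbp9 hardly moved in mouse 3, at -0.04, and was at 0.66 in mouse 11. Past the 2-fold threshold were 1 of 7 below -1 in mouse 3 (3.42% of all genes) and 1 of 7 above 1 in mouse 11 (4.97% of all genes), Gbp2 in both cases. The medians were -0.38 and 0.66, beside 0.02 and -0.02 over all genes. These are differences between single libraries with no test.

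**Figure D4:**
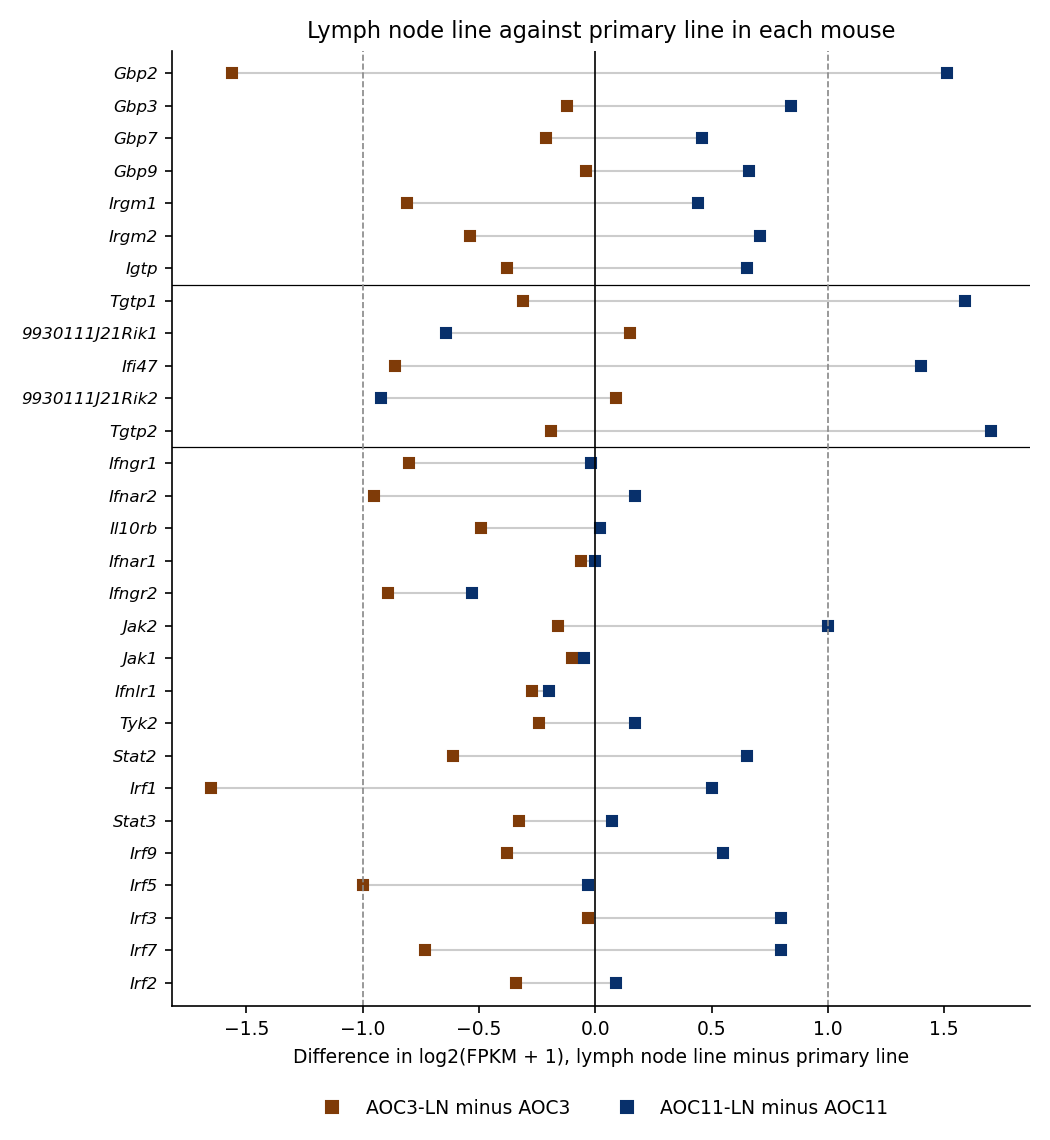
Difference in quantile-normalized log2(FPKM + 1) between the lymph node line and the primary line of mouse 3 (brown) and mouse 11 (blue), for the 7 members that passed the filter (top), 5 other interferon-induced GTPases (middle) and interferon receptors, kinases, STATs and IRFs (bottom), with dashed lines at the 2-fold threshold. All 7 members have the brown point below 0 and the blue point above 0, Gbp2 being the farthest apart at -1.56 and 1.51.

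The mice were also compared by site. Between AOC3 and AOC11, 0 of 7 genes were below -1 (5.69% of all genes), and the median was -0.38. Gbp2 differed by -0.15 and Irgm2 by -0.20, and the largest differences were those of Igtp, -0.85, and Irgm1, -0.82. On the scale of FPKM ratios, AOC11 was 3.38-fold above AOC3 for Gbp3 (1.77 to 7.17) and 2.01-fold for Gbp7 (1.13 to 3.94), differences that the pseudocount of 1 compresses. With a pseudocount of 0.1 the median was -0.94 and 3 of 7 were below -1. Between AOC3-LN and AOC11-LN, 7 of 7 were below -1 (8.69% of all genes), with a median of -1.46 beside 0.03 over all genes. Gbp2 differed by -3.22, Irgm1 by -2.07, Igtp by -1.88 and Gbp7, the smallest, by -1.02. As Gbp3, Gbp7, Gbp9 and Irgm2 entered only through AOC11-LN, their count is not independent of the filter. Gbp2, Irgm1 and Igtp also reached 1 FPKM in other lines.

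Genes flanking the clusters were read to see whether whole regions moved. On chromosome 3 Pdlim5, before the Gbp genes, was at 43.5, 58.1, 68.5 and 40.6 FPKM in AOC3, AOC3-LN, AOC11 and AOC11-LN, and Kyat3, after them, at 2.27, 1.20, 6.93 and 3.67. On chromosome 5 Zfp951 was at 3.08, 2.35, 2.19 and 3.67 and Lrrc8b at 14.9, 16.7, 20.9 and 10.9. Beside Igtp and Irgm2, Mrpl22 was at 60.1, 61.9, 56.4 and 54.4 and Zfp692 at 10.8, 9.64, 7.44 and 9.47. None of these had its lowest value in AOC3-LN together with its highest in AOC11-LN. Both neighbors of Irgm1 did have that order, which 15.0% of all genes tested had, and whether the region moved as a whole was not tested. Trim7 was at 1.08, 0.333, 1.19 and 2.24 FPKM, and Psme2b, a copy of a proteasome activator subunit gene, at 1.25, 0.337, 2.24 and 2.82. Sequence that Psme2b may share with other genes was not counted.

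Other interferon-induced GTPases were not uniform. Of 20 in the table, 5 passed the filter. Of these 5, Tgtp1, Tgtp2 and Ifi47 had the members' order (3 of 5, 15.0% of all genes). The same 3 were below -1 between the mice (6.00% of all genes). Tgtp1 and Tgtp2 passed only through AOC11-LN, so the filter made it their highest line. limma called 0 of 5, with 2 (Tgtp1 and Ifi47) at an unadjusted p under 0.05 (18.7% of all genes). Ifi47 (Irg-47) was at 1.26, 0.185, 3.29 and 11.0 FPKM in AOC3, AOC3-LN, AOC11 and AOC11-LN, a log2 difference between the mice of -2.13 with a limma adjusted p of 0.175. The T cell-specific GTPase gene Tgtp1 was at 0.270, 0.0132, 0.937 and 5.70, and Tgtp2 at 0.204, 0.0399, 0.414 and 4.25, but these genes share 80.41% of the 100-base windows of Tgtp2 and their reads cannot be told apart with confidence. The immunity-related GTPase genes 9930111J21Rik1 and 9930111J21Rik2, also alike in sequence, were highest in AOC11, at 1.52 and 2.72 FPKM, and lower in AOC11-LN, at 0.932 and 1.33.

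Below the filter, Gbp4 (0.411, 0.0162, 0.634 and 0.825 FPKM) and Gbp8 (0.186, 0.0489, 0.315 and 0.759), next to Gbp9, followed the members, as did Gbp10 at up to 0.178. Gbp11, Gm4951 and Gm12185 did not exceed 0.140 and Gm5431 did not exceed 0.184, while Gbp2b was at 0 in all lines. Some genes had a different order. Gm12250, listed in RefSeq with the synonym Irgb10 and close to Igtp, was at 0.561 FPKM in AOC3 and 0.694 in AOC3-LN, against 0.0542 in AOC11 and 0.110 in AOC11-LN. The giant GTPase gene Gvin1 was at 0.453, 0.607, 0.0200 and 0.108, and its near-identical copy Gm4070 at 0.504, 0.840, 0.283 and 0.108. The dynamin-like genes Mx1 (0.145, 0.0139, 0 and 0.0351) and Mx2 (0.172, 0, 0.0132 and 0.123), the latter annotated as a polymorphic pseudogene, were highest in AOC3. Within each mouse their values moved in the members' direction, on at most 13 estimated fragments in a line. F830016B08Rik and Gm1966 did not exceed 0.0142 FPKM. Gvin1 rests on an estimated 130 and 146 fragments in the AOC3 lines against 5.7 and 30 in the AOC11 lines, and Gm12250 on at most 22 in a line.

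GTPases of the same superfamily that are not interferon-induced served as a comparison. Of 12 dynamins, mitofusins, atlastins and related genes, 9 passed the filter, with a median log2 difference between the mice of 0.08 against -0.98 for the members. The filter did not act alike on the lists. These 9 were above 1 FPKM in every line, whereas Gbp3, Gbp7, Gbp9, Irgm2 and Igtp passed only through the AOC11 lines. limma called 0 of 9, with 2 (Dnm1l and Mfn1) at an unadjusted p under 0.05 (18.7% of all genes). The mitochondrial fusion GTPase Mfn1 was at 18.3, 15.3, 49.2 and 32.5 FPKM, and 1 of 9, Mfn1, was below -1 (6.00% of all genes). Atl3 and Irgq differed by -0.60 and -0.62. The order with AOC3-LN lowest and AOC11-LN highest occurred in 3 of the 9 (15.0% of all genes).

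Upstream of the GTPases, the interferon genes with an entry were scarcely detected. Of 21 ligand genes listed 6 had an entry, and 0 of 6 passed the filter, while the others have no value here. Ifng was at 0 in all lines, Ifnb1 was at 0.0522 FPKM in AOC11-LN and 0 in the others, and the highest value of any ligand was 0.185 FPKM, of Ifnz in AOC11-LN. Receptors and kinases were all expressed, 9 of 9 passing the filter. The interferon gamma receptor chains were lowest in AOC3-LN, Ifngr1 at 14.8, 7.65, 19.4 and 18.9 FPKM and Ifngr2 at 7.27, 3.06, 17.4 and 11.7. The type I receptor chain Ifnar1 was at 14.1, 12.7, 9.80 and 9.95, so it was not lower in the AOC3 lines, and Ifnar2 was at 26.0, 12.4, 14.8 and 16.6. Jak2, the kinase of the interferon gamma receptor, was at 8.27, 6.83, 8.30 and 17.7. The other kinases, Jak1 (36.8, 33.9, 26.7 and 25.2) and Tyk2 (6.63, 4.93, 6.60 and 7.75), were present in all lines. Between the mice, 1 of 9 was below -1, Ifngr2 with -1.30 (6.00% of all genes). limma called 0 of 9, with 2 (Ifngr2 and Jak1) at an unadjusted p under 0.05 (18.7% of all genes).

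All 8 STAT and IRF genes examined passed the filter, and 6 of 8 had AOC3-LN lowest and AOC11-LN highest (15.0% of all genes). Irf1, which binds the ISRE and is itself induced by interferon gamma, was abundant, at 68.1 FPKM in AOC3 and 21.1 in AOC3-LN, against 66.9 in AOC11 and 96.5 in AOC11-LN. Its log2 difference was -1.65 in mouse 3, 0.50 in mouse 11 and 0.10 between the primary lines. Irf9 was at 2.23, 1.25, 3.90 and 6.56 and Irf7 at 1.27, 0.288, 1.19 and 3.54. Stat2, a subunit of the complex that binds the ISRE, was at 6.72, 3.59, 5.40 and 9.18. Irf5 was not highest in AOC11-LN, at 2.84, 0.776, 1.81 and 2.25. Between the mice 1 of 8, Irf9, was below -1, at -1.13 (6.00% of all genes). limma called 0 of 8, and Irf9 was the 1 gene with an unadjusted p under 0.05 (18.7% of all genes).

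**Figure D5:**
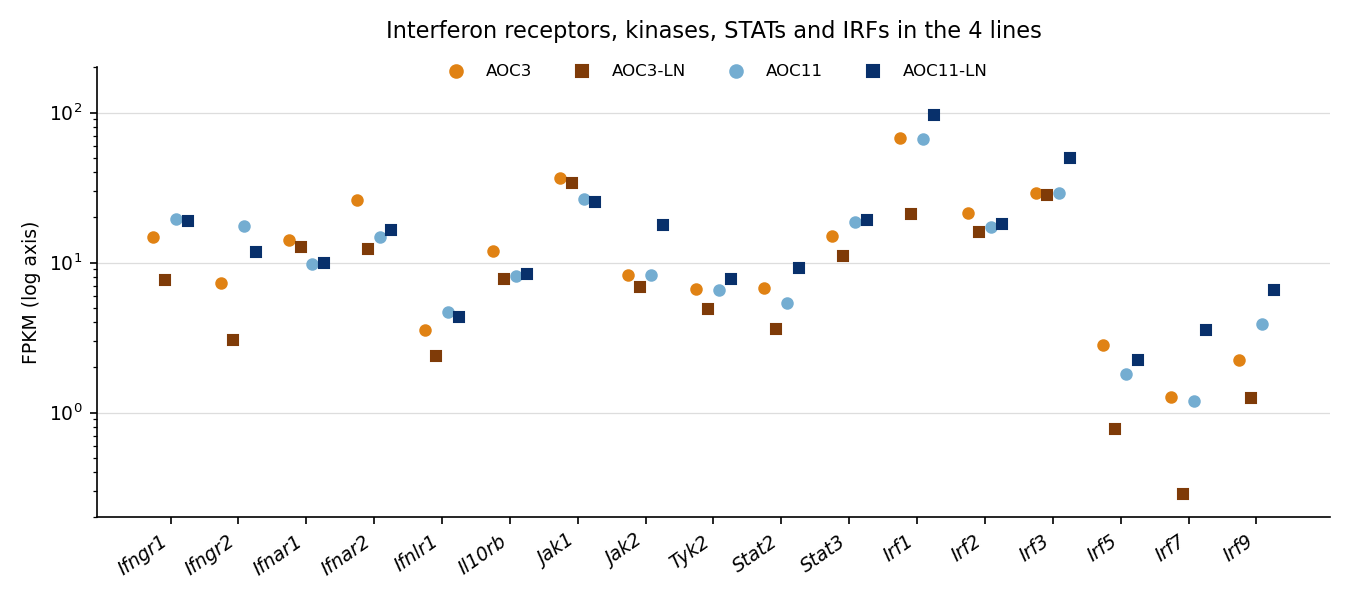
FPKM (log axis) of 9 interferon receptor and kinase genes and 8 STAT and IRF genes in the 4 lines, 1 library per line. Irf1, Irf7 and Irf9 are lowest in AOC3-LN and highest in AOC11-LN, whereas Ifnar1 and Jak1 are higher in both AOC3 lines than in the AOC11 lines.

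Negative regulators of the pathway differed among themselves. The interferon-induced deconjugase Usp18, at 1.20, 0.175, 1.19 and 9.43 FPKM, and its substrate modifier Isg15, at 4.40, 0.411, 4.87 and 14.5, had the members' order, as did the phosphatase Ptpn6, at 6.16, 3.85, 8.23 and 19.5. The suppressors of cytokine signaling were higher in the AOC3 lines, Socs1 at 1.36, 1.45, 0.612 and 0.354 and Socs3 at 13.4, 14.4, 7.34 and 4.82. The phosphatase gene Ptpn2 was highest in AOC3-LN and lowest in AOC11-LN, at 38.5, 41.7, 37.5 and 24.1, Ptpn11 was at 41.7, 48.0, 62.5 and 37.6, and Pias1 was at 11.8, 7.73, 8.22 and 8.46. Of 8 genes, 1 was above 1 between the mice (Socs3, 1.19) and 3 were below -1 (Isg15, Usp18 and Ptpn6). Of all 14165 genes tested, 723 were above 1 and 850 (6.00%) below -1. limma called 0 of 8, with 2 (Socs3 and Ptpn6) at an unadjusted p under 0.05 (18.7% of all genes).

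Genes that act with the GTPases on membranes or downstream of them were also read. Of 18 ubiquitin-like conjugation and targeting genes that passed the filter, 1 was below -1 between the mice (6.00% of all genes). It was the antibody receptor and ubiquitin ligase Trim21, at 0.970, 0.237, 1.21 and 5.20 FPKM with -1.26. Map1lc3a, which encodes a membrane-conjugated LC3 protein, differed by -0.93, and the galectin gene Lgals3 by 0.78. The median of the 18 was -0.28. The prenylation and myristoylation enzymes, which attach lipid anchors to such GTPases, had 0 of 8 past the threshold, with Fnta at -0.51, Pggt1b at 0.51 and Rce1 at -0.47. Of 13 inflammasome and pyroptosis genes 5 passed the filter. The DNA sensor gene Aim2 was at 10.3, 0.616, 0.197 and 3.10 FPKM, so it was highest in AOC3, and Il18 was at 1.35, 0.0646, 0.306 and 3.89. Ninj1 differed by -0.37. In these lists limma called 0 of 18, 0 of 8 and 0 of 5 genes, with 1 (Sqstm1), 1 (Fnta) and 0 at an unadjusted p under 0.05 (18.7% of all genes).

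Among the genes whose log2 values over the 4 lines were most like the members' mean profile, of 2874 genes that varied by at least 1, were Tnfrsf1a (Pearson r = 0.99997 over 4 lines), Nipal3, Capn1 and St6galnac6. Tnfrsf1a, the receptor gene for tumor necrosis factor, was at 24.9, 19.4, 31.4 and 42.3 FPKM. With 4 points from 4 libraries 313 of the 2874 genes had r above 0.95, so likeness of profile is common here and carries no test.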

How the data were processed

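RNA of 4 mouse oral cancer lines was sequenced from TruSeq Stranded mRNA libraries, 1 per line. The authors trimmed reads with Trim Galore, mapped them to mm10 with TopHat2 and deposited FPKM values estimated by Cufflinks on GENCODE M21 with default parameters; tool versions are not given in the sources used here, nor whether counting used strand. The deposited FPKM values are on the linear scale and their distributions differ between lines.

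Log2(FPKM + 1) was computed here and quantile-normalized over the 34721 entries, and the 14165 genes that reached 1 FPKM in any line were tested. The lines of mouse 3 (AOC3 lines) were set against those of mouse 11 (AOC11 lines) with limma 3.58.1 in R 4.3.3 (eBayes with trend, Benjamini-Hochberg adjustment, tested on simulated data). Single lines were compared by log2 differences above 1 or below -1 without a test. The p-values measure the spread between the lines of a mouse, not between mice. Depth was estimated from the steps of low FPKM values: between 72.1% and 74.9% of values fell within 0.1 of a whole number of fragments, against 20.0% by chance. The fragments of a gene were estimated from its FPKM with the shortest coding transcript over 1000 bases. For genes with several transcripts a longer one would give more fragments. Intervals (95%) and the floor of 3 fragments use these estimates and cover counting error only. Ratios to the floor leave out the counting error of the higher line. Sequences shared between genes were counted as identical 100-base windows of GENCODE M21 transcripts. Promoter sequences are from RefSeq.

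The members and the gene lists were chosen with earlier results of these data known, so their counts are descriptions. The genes named were drawn from all members, other interferon-induced GTPases, the listed ligands, receptors, kinases, STATs, IRFs and negative regulators, the 3 genes with the largest difference between the mice in each further list, and the genes most like the members (the first 5, of which 4 are named). Not every gene of a list is named, and the counts cover the whole list except for a few genes not reported here. Flanking genes, cell type markers and genes sharing sequence were named for their position or role, and Dnm1l, Irgq, Sqstm1 and Atl3 were chosen after their values were seen. Alternatives covered the pseudocount, normalization, filter, gene type, fold threshold, a replicate block and leaving out each line.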

Additional observations from a re-analysis of the deposited data

Results flagged for a closer look

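The lymph node line moved in opposite directions from the primary line in the mice, for every one of the 7 members that passed the filter. Each mouse gives 1 difference between single libraries, so whether the mice differ was not tested. Gbp3, Gbp7, Gbp9 and Irgm2 reached 1 FPKM in AOC11-LN only, so the filter set their direction in mouse 11. The log2 difference of AOC3-LN from AOC3 and that of AOC11-LN from AOC11 were -1.56 and 1.51 for Gbp2, -0.12 and 0.84 for Gbp3, -0.21 and 0.46 for Gbp7, and -0.04 and 0.66 for Gbp9. They were -0.81 and 0.44 for Irgm1, -0.54 and 0.71 for Irgm2, and -0.38 and 0.65 for Igtp. The values of Gbp3 and Gbp9 in mouse 3 are within counting error.

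Among the other pathway genes named, 3 moved past the 2-fold threshold in both mice with opposite signs, also untested. The differences in mouse 3 and mouse 11 were -2.71 and 1.59 for Aim2, -1.86 and 1.36 for Isg15, and -1.08 and 1.71 for Il18.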

How the results depend on the processing

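No gene value of a member changed sign under any alternative run (0 of 257 values), and limma called 0 members under every setting, with adjusted p values of members between 0.0957 and 0.809. Counts past the threshold depended on the scale. With a pseudocount of 0.1 in place of 1, members below -1 rose from 3 to 7 between the mice, from 1 to 5 for AOC3-LN against AOC3 and from 0 to 3 between the primary lines, and those above 1 from 1 to 4 for AOC11-LN against AOC11. The medians then were -2.07 (mice), -1.09 (mouse 3), 1.09 (mouse 11), -0.94 (primary lines) and -3.70 (lymph node lines). A 1.5-fold threshold gave 7 between the mice, 2 in mouse 3, 5 in mouse 11 and 2 between the primary lines. Without quantile normalization and with scaling by the median, 2 members were above 1 in mouse 11, and the median between the primary lines was -0.24 in both. Without quantile normalization, 912 genes were above 1 and 369 below -1 in mouse 11, against 704 and 445 with it. A filter of 5 FPKM left 2 members, Gbp2 and Irgm1, so 2 were below -1 between the lymph node lines, and the medians were -1.56 (mice), -1.19 (mouse 3) and -2.64 (lymph node lines). Without a filter the median in mouse 3 was -0.22.

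Leaving out a line moved the count of members below -1 between the mice from 2 to 6 and their median from -1.43 to -0.89. The count was 5 without AOC3, 2 without AOC3-LN, 6 without AOC11 and, of the 3 members that still passed, 2 without AOC11-LN. The lone line of a mouse is then assumed to vary like the other mouse's lines.

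With the site (primary or lymph node) as a replicate block, limma called 0 members, and 31 genes in all against 29 without the block. The replicate numbers mark only the site, not shared material. Calls over all genes were 256 among protein-coding genes, 50 with the filter of 5 FPKM, 0 without a filter (4247 at an unadjusted p under 0.05), 0 without AOC3, AOC11 or AOC11-LN, and 4 without AOC3-LN. Depth limits Gbp5, Gbp6 and Iigp1, and the AOC3-LN values of Gbp3, Gbp7, Irgm2 and Igtp, which rest on 2.5 to 3.9 fragments.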

Other observations

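The order of the lines was also read in other genes by whether their promoter window held the ISRE core letters. Among protein-coding genes outside the lists that passed the filter, 307 had an ISRE core in their promoter window, and 78 of these (25.4%) were lowest in AOC3-LN and highest in AOC11-LN, against 1432 of 8574 (16.7%) without it. The median log2 difference between the lymph node lines was -0.16 with the letters and -0.01 without. These are descriptions over genes, which are not replicates, and no test was run.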
